A study of Mus musculus with 4 samples.

Results

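Transcripts of 6 receptors of the tumour necrosis factor (TNF) receptor family were followed in single helper T cells: Tnfrsf4 (OX40), Tnfrsf18 (GITR), Tnfrsf9 (4-1BB), Cd27, Tnfrsf1b (TNFR2) and Fas. They were chosen by name as members of 1 gene family and make up 6 of the 28625 gene symbols measured. Droplet 3′ RNA counts came from 2 sorts of activated CD4 T cells from the mediastinal lymph node, taken 7 days after intranasal Alternaria alternata extract (10 µg) with NP-OVA (25 µg), a hapten-coupled antigen. The Tfh sort (follicular helper T cells, the cells that help B cells) kept TCRβ+ CD4+ CD44+ PD-1+ CXCR5+ cells of 3 C57BL/6 mice. The second sort, called the reporter sort here, took activated CD4 T cells that were GFP-positive from 3 C57BL/6 4GET IL-4 Reporter mice, a strain in which GFP reports activity of the Il4 locus. All mice of both sorts received the same antigens, and all cells were restimulated for 30 min with PMA and ionomycin, so there is no unstimulated control. Each sort was 1 lane with 1 hashtag antibody per mouse, and strain, 10x chemistry, sequencing run and sorting gate differ together between the sorts and cannot be told apart. The mouse is the replicate (n = 3 per sort). Levels are in CPM, the usual scaling of UMIs (counted molecules) to the summed UMIs of a group of cells, given for mice 1, 2 and 3 or as mean ± SD over 3 mice.

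Receptors of this family are bound by trimeric ligands of the TNF family, often on antigen-presenting cells. OX40, GITR, 4-1BB, CD27 and TNFR2 recruit TRAF adaptor proteins that activate NF-kB and favour growth and survival of T cells, while Fas carries a death domain and can start apoptosis. OX40, GITR and TNFR2 are known to be abundant on regulatory T cells, the suppressive lineage that the factor Foxp3 specifies, and 4-1BB appears after activation. CD27 is present on resting T cells and is lost with repeated activation. Because the counts are 3′ tags, levels are compared between cells for 1 gene, and no gene is ranked above another.

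The genes of 4 of the 6 members lie on mouse chromosome 4 (GRCm38, GENCODE M21). Tnfrsf4 (chr4:156013843-156016612, plus strand) and Tnfrsf18 (chr4:156026164-156028895, plus strand) are neighbours with 9551 bases between them, and Tnfrsf9 (chr4:150914562-150946102, plus strand) and Tnfrsf1b (chr4:145213463-145246870, minus strand) lie farther away on the same chromosome. Cd27 (chr6:125232622-125237010, minus strand) and Fas (chr19:34290666-34327772, plus strand) lie elsewhere. The antisense gene Gm16008 overlaps Tnfrsf18, but its UMIs in helper T cells came to at most 0.566 CPM in a mouse. The 250 bases before a start site are shown for the 3 members that rose in the Foxp3 test below. They come from RefSeq promoter entries (GRCm38.p6, which hold all 6 members). RefSeq's start sites differ from the GENCODE gene starts above: the Tnfrsf4 window ends before the GENCODE start and the Tnfrsf18 window runs past it. Both Tnfrsf9 starts lie inside the GENCODE gene, and only the second is shown. Capitals mark matches to the NF-kB consensus, searched by its name on both strands with overlaps kept, and to the AP-1 letters TGANTCA, searched on both strands. Tnfrsf9, second start, chr4:150927749-150927998, plus strand:
Tnfrsf9: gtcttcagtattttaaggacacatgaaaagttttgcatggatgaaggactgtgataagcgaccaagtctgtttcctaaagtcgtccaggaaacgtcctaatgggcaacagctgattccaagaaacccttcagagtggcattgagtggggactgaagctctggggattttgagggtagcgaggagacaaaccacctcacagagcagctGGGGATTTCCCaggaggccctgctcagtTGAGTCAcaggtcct
Tnfrsf4, chr4:156013445-156013694, plus strand:
Tnfrsf4: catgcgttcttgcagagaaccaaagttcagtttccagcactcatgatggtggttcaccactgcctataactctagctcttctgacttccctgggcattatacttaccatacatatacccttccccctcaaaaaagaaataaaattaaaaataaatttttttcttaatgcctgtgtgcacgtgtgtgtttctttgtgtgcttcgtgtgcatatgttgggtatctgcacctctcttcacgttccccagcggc
Tnfrsf18, chr4:156026072-156026321, plus strand:
Tnfrsf18: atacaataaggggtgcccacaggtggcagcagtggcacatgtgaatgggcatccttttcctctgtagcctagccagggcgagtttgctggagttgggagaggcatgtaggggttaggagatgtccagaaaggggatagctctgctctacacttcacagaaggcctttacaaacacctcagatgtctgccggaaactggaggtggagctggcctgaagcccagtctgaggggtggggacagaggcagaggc
Only the second Tnfrsf9 start had an NF-kB match among the members, GGGGATTTCC with the overlapping GGGATTTCCC, spanning bases 43 to 33 before the start, and an AP-1 match, TGAGTCA, stood at bases 15 to 9 before it. The Fas promoter held TGAGTCA at bases 211 to 205 before the start. The first Tnfrsf9 window and the other members' windows held neither set of letters. Of 32851 RefSeq mouse promoters of 300 bases, 5.8% held the NF-kB consensus and 7.81% TGANTCA, so such matches are not rare, and they describe letters only.

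Helper T cells were taken by transcripts: no Cd79a UMI, at least 1 UMI of Cd3d, Cd3e or Cd3g, and few CD8 or macrophage UMIs. They numbered 2992 in the Tfh sort (1120, 1209 and 663 by mouse) and 3527 in the reporter sort (1181, 1041 and 1305), with median depths of 2782.5 and 6696 UMIs per cell and 2556475 to 12582710 UMIs per mouse. The sorts also held 562 and 250 B cells (2 or more Cd79a UMIs), although both gates were for CD4 T cells. No barcode was shared between the sorts. The 6 T-cell markers summed to 7529 to 7643 CPM in helper T cells of the Tfh sort. Their sum was 5297 to 5942 CPM in those of the reporter sort, against 1041 to 2596 CPM in the B cells. Cd3d, Cd3e and Cd3g are in this list and in the rule, so part of the difference is set by the rule. The 6 B-cell markers summed to 625.5 to 768.5 and 212.6 to 308.1 CPM in helper T cells, with Cd79a at 0 by the rule. Cells of 2 mice in 1 droplet were removed by hashtag, and doublets within a mouse were not.

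Every member was detected in both sorts. In all helper T cells of the Tfh sort Tnfrsf4 stood at 899, 857 and 859 CPM, Cd27 at 238, 220.2 and 220.6, and Tnfrsf18 at 223, 193 and 197. Tnfrsf9 stood at 132, 92.4 and 85.3 CPM, Tnfrsf1b at 67.9, 56.1 and 66.9 and Fas at 59.0, 58.6 and 57.1. Means in the reporter sort were 506 ± 23.4 CPM for Tnfrsf4, 186 ± 18.1 for Tnfrsf18, 134 ± 14.3 for Cd27, 31.1 ± 3.46 for Tnfrsf1b, 26.2 ± 8.60 for Tnfrsf9 and 20.2 ± 3.77 for Fas. Tnfrsf9 was thus the member that varied most between mice, and Fas in the Tfh sort the least. A Tnfrsf4 UMI was found in 67.7% of Tfh-sort helper T cells (95% exact binomial interval 66.0 to 69.4%, counting error only) and in 69.7% of reporter-sort cells (68.2 to 71.3%). A Tnfrsf9 UMI was in 16.2% (14.9 to 17.6%) and 11.3% (10.3 to 12.4%). In B cells without a Cd3 UMI, taken here as the background, a Tnfrsf4 UMI was found in 12.1 and 7.69% of cells and a Tnfrsf9 UMI in 0.294 and 0.855%, at median depths of 2047.5 and 4661 UMIs.

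**Figure D1:**
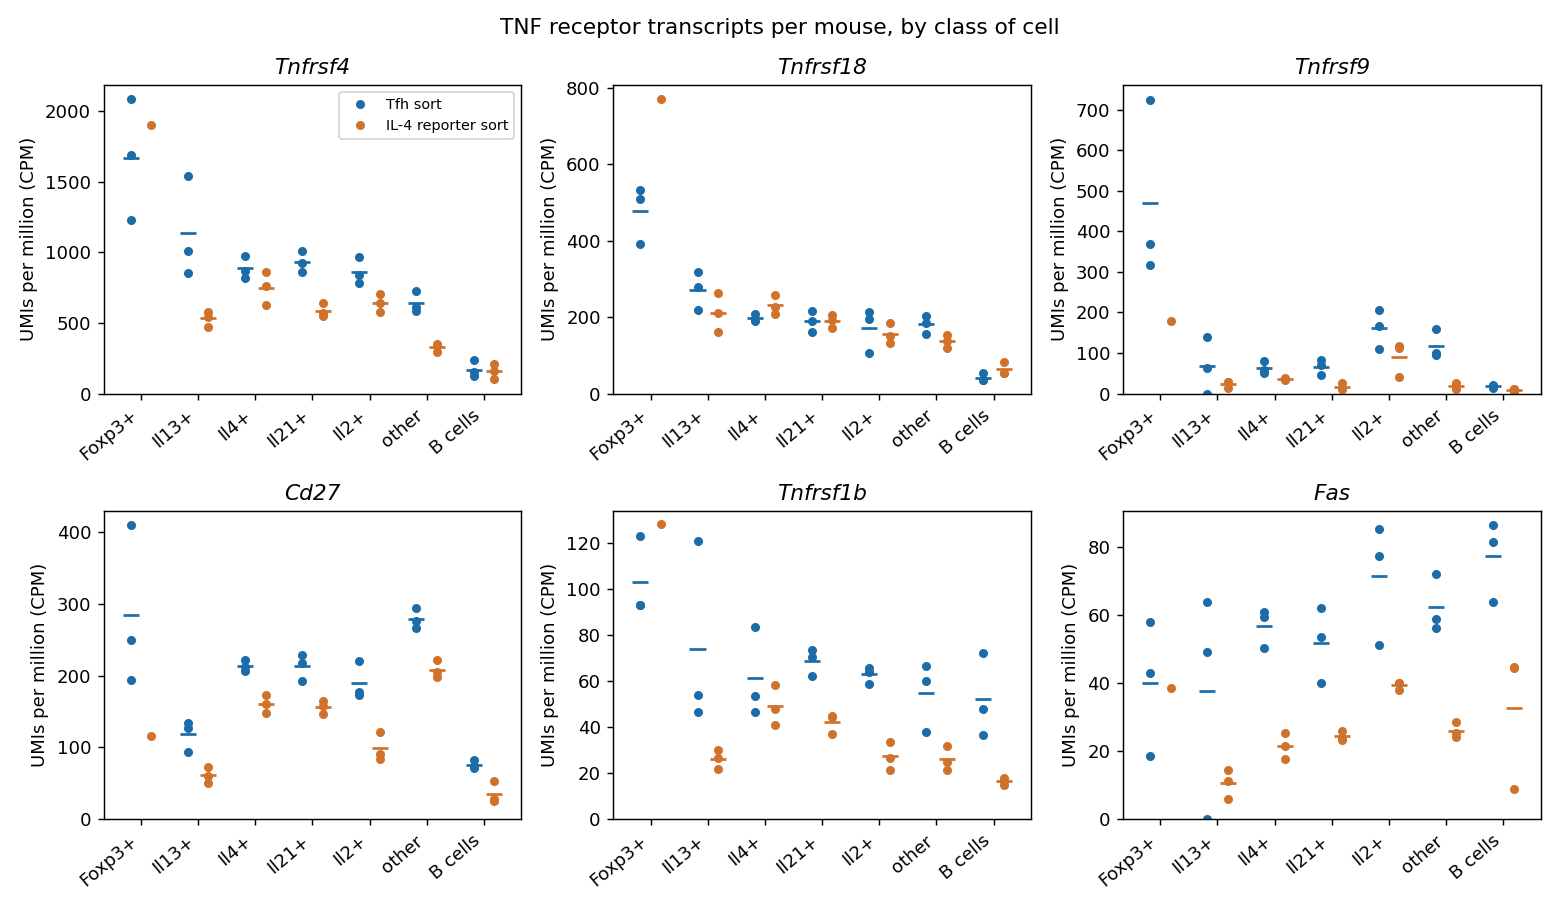
Levels of the 6 receptor transcripts (CPM, vertical axis) in exclusive classes of helper T cells and in B cells of both sorts (horizontal axis). Points are mice and horizontal lines are means over 3 mice, except that the Foxp3+ class of the reporter sort shows the only mouse with 10 or more such cells. In the Tfh sort the means of all members but Fas are highest in Foxp3+ cells. Only for Tnfrsf9 and Tnfrsf18 do the Foxp3+ mice not overlap another class.

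The levels were first compared over classes in which each cell counts once: Foxp3+ cells (1 or more UMIs), then among the rest Il13+, Il4+, Il21+ and Il2+ cells (2 or more UMIs each, in this order) and other cells. Tnfrsf4 in the Tfh sort ran in the order Foxp3+ (1669 ± 429 CPM), Il13+ (1136 ± 359), Il21+ (931 ± 71.9), Il4+ (886 ± 79.5), Il2+ (863 ± 94.7), other (639 ± 75.2) and B cells (170.2 ± 58.2). The 4 cytokine classes did not differ beyond their spread, and the other cells, at 725, 611 and 583 CPM by mouse, lay below all Il4+, Il21+ and Il2+ values. The order in the reporter sort was Il4+ (750.2 ± 117 CPM), Il2+ (641 ± 63.7), Il21+ (586 ± 49.0), Il13+ (533 ± 53.4), other (328 ± 27.5) and B cells (159 ± 52.2). There too the other cells were apart from every cytokine class, while neighbouring cytokine classes overlapped. Tnfrsf4 is thus a transcript of most helper T cells here, lowest among T-cell classes in cells below 2 UMIs of each of the 4 cytokines. These other cells can hold 1 such UMI. They were also the shallowest T-cell class, with medians of 2229 UMIs in the Tfh sort and 5569 in the reporter sort.

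Tnfrsf18 had a similar order in the Tfh sort, with Foxp3+ cells at 478 ± 75.1 CPM, Il13+ cells at 272 ± 50.7 and the remaining T-cell classes between 171 ± 56.4 (Il2+) and 198 ± 9.97 (Il4+). The Foxp3+ class stood clear of the others, since its lowest mouse (392 CPM) exceeded the highest Il13+ mouse (318 CPM). The lowest Il13+ mouse (217.8 CPM, 11 cells) exceeded the highest mouse of the remaining classes (216.1 CPM, Il21+) only narrowly. In the test described below, the Tnfrsf18 change with Il13 in this sort was 0.49 ± 0.17 and did not pass (edgeR adjusted p = 0.072). Among reporter-sort T-cell classes held by 3 mice Tnfrsf18 ran from 232 ± 25.2 CPM in Il4+ cells to 137 ± 16.9 in other cells. Tnfrsf9 was the most uneven member: in the Tfh sort it stood at 369, 725 and 317 CPM in Foxp3+ cells, at 206, 109.8 and 166 in Il2+ cells and at 79.4, 58.6 and 51.2 in Il4+ cells. Reporter-sort Il2+ cells stood at 40.11, 111.7 and 117.5 CPM, the highest of the classes held by 3 mice, with mouse 1 near the 3 Il4+ values of 33.85 to 37.55, and the Foxp3+ cells of mouse 1 stood at 179.7 CPM. Both sorts therefore had Tnfrsf9 higher in Il2+ than in Il4+ cells in each mouse.

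Cd27 had another order. Other cells (279 ± 14.5 CPM) and Foxp3+ cells (285 ± 113) of the Tfh sort were highest and Il13+ cells lowest (118 ± 21.7), and in the reporter sort other cells (208 ± 12.6) were highest and Il13+ cells again lowest among T cells (61.6 ± 11.1). Tnfrsf1b ran in the Tfh sort from 54.8 ± 15.1 CPM in other cells to 103 ± 17.1 in Foxp3+ cells, which overlapped only Il13+ cells (120.9 CPM in mouse 1), and in the reporter sort was higher in Il4+ (49.1 ± 8.77) and Il21+ cells (42.1 ± 4.48) than in Il13+ (26.2 ± 4.30) and other cells (25.99 ± 5.38). Fas ran in the Tfh sort from 37.6 ± 33.3 CPM in Il13+ cells to 71.3 ± 17.8 in Il2+ cells, and the Il2+ class overlapped the B cells (77.1 ± 11.9). Fas in the reporter sort was highest in Il2+ cells (39.3 ± 1.30) among T-cell classes held by 3 mice and lowest in Il13+ cells (10.6 ± 4.29), and the values of these classes did not overlap. The reporter sort had 23 Foxp3+ cells (10, 6 and 7 by mouse), too few for a class in 3 mice: a Tnfrsf18 UMI was in 22 of the 23 cells, a Tnfrsf4 UMI in 20 and a Tnfrsf9 UMI in 15.

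The changes were then tested 1 marker transcript at a time. Cells positive for a cytokine (2 or more UMIs) or regulator (1 or more) were set against cells with 0 UMIs of it from the same mice, UMIs were summed per mouse and side, and edgeR's quasi-likelihood test was run on all genes with Benjamini-Hochberg adjustment and the mouse as a block. A log2 change is positive minus negative side, ± SE, and a gene is said to rise or fall where its adjusted p is under 0.05. The SE is the change divided by the square root of the test's F statistic, with variation estimated partly across all genes. Neither the SE nor the p-value is the spread of the change between mice, which the values by mouse show. The contrasts of 1 sort reuse the same cells and are not independent. The positive side was also deeper in the tested Foxp3, cytokine and Gata3 contrasts, for example with 12307 to 16553 against 5976 to 6421.5 median UMIs per cell by mouse for Il13 in the reporter sort. For Cxcr5 in that sort the medians overlapped (6580 to 7367 against 6321 to 6746).

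**Figure D2:**
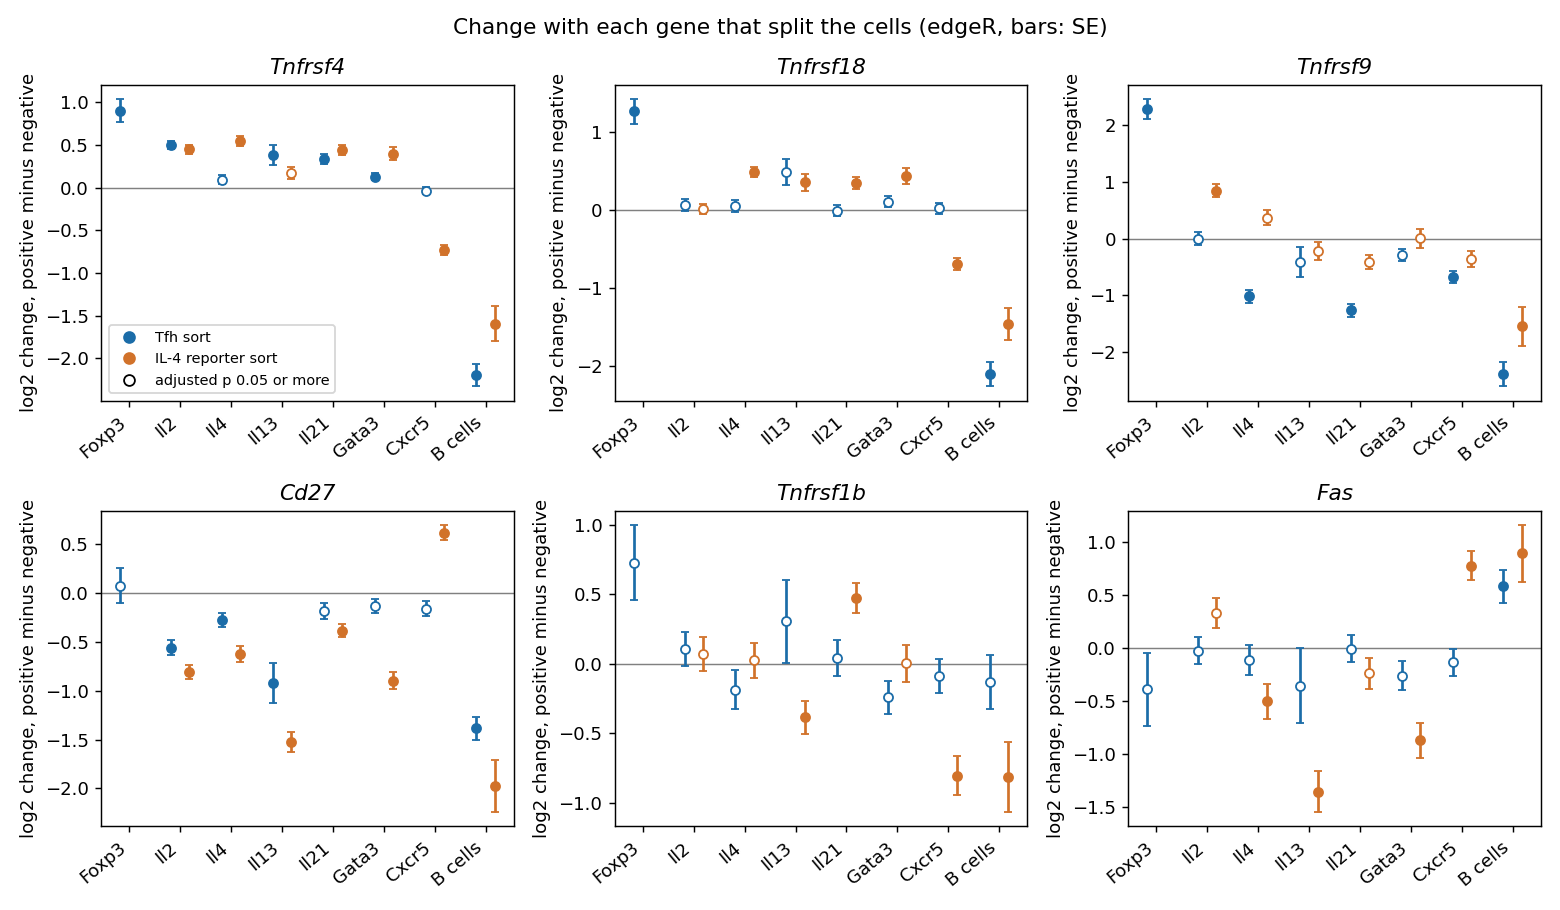
Log2 change of the 6 members (positive minus negative cells, vertical axis) for each marker transcript and for B cells against helper T cells (horizontal axis), in both sorts. Points are edgeR estimates over 3 mice with bars of 1 SE, filled where the adjusted p is under 0.05 and open otherwise; the Foxp3 change of Tnfrsf9 in the Tfh sort (2.29) is the highest among T cells, and Cd27 is at or below 0 in most T-cell contrasts.

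In Foxp3+ cells of the Tfh sort (71 cells, 37, 24 and 10 by mouse, against 2921 cells) Tnfrsf9, Tnfrsf18 and Tnfrsf4 rose, 3 of 6 members where 5.01% of all genes passed (2.46% higher, 2.55% lower). Tnfrsf9 was at 369, 725 and 317 CPM in Foxp3+ cells and at 115.5, 71.5 and 80.3 CPM in the others, a log2 rise of 2.29 ± 0.17 (edgeR adjusted p = 1.2e-37). Tnfrsf18 was at 531.5, 509.5 and 392 CPM against 201, 183 and 193, a rise of 1.26 ± 0.16 (edgeR adjusted p = 2.2e-13). Tnfrsf4 was at 1689, 2088 and 1231 CPM against 843, 817 and 851, a rise of 0.90 ± 0.13 (edgeR adjusted p = 2.5e-09). The 2 sides did not overlap for any of these genes, and mouse 2 was highest for Tnfrsf9 and Tnfrsf4. Without mouse 2 Tnfrsf4 stood at 0.66 with an adjusted p of 0.22 in edgeR. Tnfrsf1b did not overlap either, at 122.9, 93.29 and 93.28 CPM against 63.9, 54.8 and 66.3, but its change of 0.73 ± 0.27 did not pass (edgeR adjusted p = 0.099). Cd27 (0.078 ± 0.18) and Fas (−0.39 ± 0.34) did not pass, which with 71 cells does not show that they were unchanged, and Fas was lower in all 3 mice. Of 5 regulatory T-cell genes tested 5 rose, with a median log2 change of 1.52 against −0.059 for all genes. The 7 genes of the list summed to 1866 to 2752 CPM in Foxp3+ cells against 774.9 to 980.5 CPM in all helper T cells. Foxp3, which chose the cells, was left out of the tested genes. It counts in the sum, with 195.3, 236.8 and 186.6 CPM in Foxp3+ cells, so that part is set by the rule. The 5 proliferation genes rose too (median 0.88), and 3 of 6 Tfh genes fell (Il21, Sostdc1 and Tox2, list median −1.06). Of the B-cell genes 2 were tested and Ighm rose (1.21), and the 6 B-cell markers summed to 858.2 to 1305 CPM in Foxp3+ cells, with Cd79a at 0 by the rule. Of the macrophage genes 2 were tested and Lyz2 rose (1.35), the 5 markers summing to 55.97 to 643.6 CPM in Foxp3+ cells against 142.8 to 319.1 in all helper T cells, with C1qb at 0. Of the T-cell genes 2 of 6 fell (Cd4 and Trbc2). The part of these markers in the members' changes was not tested. Leaving out cells with Mki67 or Top2a UMIs gave a Tnfrsf4 rise of 1.42.

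Il2, the T-cell growth factor gene, marked cells with more Tnfrsf4 and less Cd27 in both sorts. In the Tfh sort (918 against 1620 cells) Tnfrsf4 stood at 1073, 1043 and 989.9 CPM against 763, 781 and 693, a rise of 0.50 ± 0.043 (edgeR adjusted p = 1.2e-12). Cd27 stood at 190.4, 177 and 156.5 CPM against 272, 250 and 275, a fall of −0.56 ± 0.076 (edgeR adjusted p = 2.7e-07). No value of one side overlapped the other for both genes, which made 2 of 6 members where 11.3% of all genes passed (6.91% higher, 4.44% lower). In the reporter sort (547 against 2707 cells, 19.3% of all genes passing, 11.3% higher and 8.06% lower) 3 members passed. Tnfrsf4 rose by 0.45 ± 0.053 (609, 593 and 623 CPM against 470.4, 492 and 425, edgeR adjusted p = 7.1e-06). Cd27 fell from 154.5, 135 and 167 CPM to 83.3, 80.0 and 88.8, a change of −0.80 ± 0.071 (edgeR adjusted p = 4.9e-07). Tnfrsf9 rose by 0.85 ± 0.12 (32.17, 32.11 and 53.0 CPM against 22.7, 15.7 and 29.5, edgeR adjusted p = 7.7e-05), with each mouse higher on the Il2 side and no overlap. With no replicate block that Tnfrsf9 call ended at an adjusted p of 0.050, and in cells without Il4, Il13 and Foxp3 UMIs the rise was 1.73, without cycling cells 1.67 and in depth-matched cells 0.55. Tnfrsf4 rose by 0.96 in cells without those 3 transcripts. Tnfrsf9 in the Tfh sort stood at −0.0049 ± 0.11 and did not pass (edgeR adjusted p = 0.99), but without Foxp3+ cells it stood at 0.39 and passed (edgeR adjusted p = 0.015). In Tfh-sort cells without Il4, Il13 and Foxp3 UMIs the Tnfrsf9 change was positive too but did not pass. Its sign also varied with the mouse left out. Under a stricter cell filter (1000 genes, 5% mitochondrial UMIs) in the reporter sort the Tnfrsf4 change was 0.18 (edgeR adjusted p = 0.185). The 9 genes of the NF-kB response list (its subunits and inhibitors) gave 7 rises in the reporter sort and 4 rises and 1 fall in the Tfh sort.

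Il4, the type 2 cytokine gene that also marks Tfh cells, split the members differently in the 2 sorts. In the Tfh sort (1115 against 1394 cells) Tnfrsf9 fell, from 194, 120.4 and 121 CPM in cells without Il4 UMIs to 85.9, 78.6 and 48.3 CPM, a change of −1.02 ± 0.11 (edgeR adjusted p = 2.0e-07). All 3 mice were lower on the Il4 side, with no overlap. Cd27 fell by 0.27 ± 0.073 (edgeR adjusted p = 0.021), which made 2 of 6 members where 6.27% of all genes passed (2.92% higher, 3.35% lower), but this call was lost without mouse 1 (−0.22, adjusted p = 0.26) or mouse 3 (−0.25, adjusted p = 0.15) and in depth-matched cells (−0.086, adjusted p = 0.81). DESeq2 (adjusted p = 0.34), the stricter cell filter (adjusted p = 0.27) and leaving out cycling cells (adjusted p = 0.22) ended it as well. In the reporter sort (392 against 2557 cells, 28.4% of all genes passing, 15% higher and 13.5% lower) 4 members passed. Tnfrsf4 rose from 480.3, 436 and 431 CPM to 643, 685 and 622 (0.55 ± 0.056, edgeR adjusted p = 1.5e-06), and Tnfrsf18 rose from 185, 160.1 and 158 to 246, 247 and 204 (0.48 ± 0.067, edgeR adjusted p = 4.4e-05). Neither gene overlapped between the sides. Cd27 was lower in Il4+ cells, at 99.98, 80.2 and 116 CPM against 152, 143 and 163, a change of −0.62 ± 0.081 (edgeR adjusted p = 2.2e-05). Fas fell by 0.50 ± 0.16 (edgeR adjusted p = 0.030) with overlapping sides, and leaving out mouse 2 (−0.39, adjusted p = 0.19) or mouse 3 (−0.46, adjusted p = 0.13) ended that call. In depth-matched cells Cd27 stood at 0.15 and Fas at −0.14, and neither passed. Fas also failed with DESeq2 (adjusted p = 0.32), with no replicate block (adjusted p = 0.11), under the stricter cell filter (−0.040, adjusted p = 0.96) and without cycling cells (−0.27, adjusted p = 0.73).

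Il13, a gene of type 2 effector cells, marked few cells of the Tfh sort (70 against 2840) and many of the reporter sort (635 against 2569). Cd27 fell in both. In the Tfh sort it stood at 134, 127.5 and 93.4 CPM against 244, 226 and 224 (−0.92 ± 0.20, edgeR adjusted p = 4.3e-04), with no overlap, and in the reporter sort at 73.3, 51.9 and 61.9 CPM against 170.2, 179 and 187 (−1.53 ± 0.10, edgeR adjusted p = 9.0e-08). Tnfrsf4 also passed in the Tfh sort (0.39 ± 0.12, edgeR adjusted p = 0.028), so that 2 of 6 members passed where 4.07% of all genes did (2.49% higher, 1.57% lower). That rise rested on mouse 1 (1540 against 875 CPM), since mouse 2 gave 1011 against 849, mouse 3 gave 856 against 862, and without mouse 1 the change was 0.048 (adjusted p = 0.98). Without mouse 2 it was 0.42 and did not pass either (adjusted p = 0.405). DESeq2 passed neither gene in that sort (adjusted p = 0.73 for Tnfrsf4, 0.093 for Cd27), and Tnfrsf4 also failed with no low-count filter (adjusted p = 0.28), under the stricter cell filter (adjusted p = 0.11) and with a limit of 1 Il13 UMI (0.19, adjusted p = 0.40), where Cd27 fell by 0.56. In the reporter sort 4 of 6 members passed, but so did 58% of all genes (28.3% higher, 29.7% lower). Fas fell there from 26.1, 25.7 and 27.4 CPM to 14.4, 6.07 and 11.4 (−1.35 ± 0.19, edgeR adjusted p = 5.1e-05), with no overlap. Tnfrsf18 rose by 0.35 ± 0.10 (edgeR adjusted p = 0.012) and Tnfrsf1b fell by 0.39 ± 0.12 (edgeR adjusted p = 0.014). Tnfrsf18 overlapped between the sides and was lower on the Il13 side in mouse 3 (164 against 171 CPM). Its call ended without mouse 1 (0.23, adjusted p = 0.073) or mouse 2 (0.29, adjusted p = 0.14), and the Tnfrsf1b call without mouse 2 (−0.28, adjusted p = 0.15) and with DESeq2 (adjusted p = 0.155). The stricter cell filter gave −0.069 for Tnfrsf18 (edgeR adjusted p = 0.60) and −0.78 for Tnfrsf1b, and with no replicate block Tnfrsf18 had an adjusted p of 0.050. Proliferation genes moved with this contrast, 5 of 5 rising by a median of 1.58. Tfh genes fell (5 of 6, median −2.33), as did T-cell genes (5 of 6, median −0.53), while Th2 genes rose (4 of 4, median 2.04). Of 3 B-cell genes tested Cd74 and Cd79b rose and Ighm fell (median 1.04), and the 6 B-cell markers summed to 240.4 to 400.4 CPM in the exclusive Il13+ class against 212.6 to 308.1 in all helper T cells, with Cd79a at 0. The part of these markers in the members' changes was not tested.

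Il21, the cytokine gene of T-cell help to B cells, went with higher Tnfrsf4 in both sorts. In the Tfh sort (924 against 1389 cells) Tnfrsf4 stood at 975, 970.2 and 1042 CPM against 900.1, 756 and 742 (0.34 ± 0.057, edgeR adjusted p = 0.0030), and without mouse 2 this became 0.31 with an adjusted p of 0.080. With a limit of 1 UMI for the Il21 side it was 0.21. Tnfrsf9 fell, from 209, 123.5 and 118 CPM to 73.7, 52.6 and 59.9 (−1.27 ± 0.11, edgeR adjusted p = 1.3e-05). The 2 sides did not overlap for either gene, and 2 of 6 members passed where 1.98% of all genes did (1.21% higher, 0.772% lower). In the reporter sort (1094 against 2027 cells) 4 of 6 members passed where 6.02% of all genes did (2.87% higher, 3.15% lower). Tnfrsf4 rose from 461, 432.2 and 431.9 CPM to 624, 638 and 555 (0.44 ± 0.057, edgeR adjusted p = 3.8e-04). Tnfrsf18 rose by 0.34 ± 0.073 (edgeR adjusted p = 0.011), Tnfrsf1b rose from 27.3, 22.0 and 30.7 CPM to 39.1, 34.9 and 37.9 (0.47 ± 0.11, edgeR adjusted p = 0.020), and Cd27 fell by 0.38 ± 0.068 (edgeR adjusted p = 0.0038). Tnfrsf1b was higher in each mouse with no overlap, while Tnfrsf18 overlapped. The Tnfrsf18 and Tnfrsf1b calls ended without mouse 1 (0.33, adjusted p = 0.085, and 0.46, adjusted p = 0.099), and with no replicate block or under the stricter cell filter Tnfrsf4 alone of the 4 still passed. DESeq2 did not pass Tnfrsf1b (adjusted p = 0.32). Regulatory T-cell genes moved with this contrast, 5 of 5 tested rising by a median of 0.48. In the exclusive Il21+ class the 7 genes of that list summed to 902.3 to 1077 CPM, with Lrrc32 at 0 and Foxp3 at 0 by the rule. The sum was 811.6 to 977.2 CPM in all helper T cells, which include the Foxp3+ cells. Their part in the members' changes was not tested.

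Gata3, the regulator of the type 2 lineage, was seen in 835 of 2992 helper T cells of the Tfh sort and in 2081 of 3527 of the reporter sort. In the Tfh sort only Tnfrsf4 passed, 1 of 6 members where 14.9% of all genes did (8.05% higher, 6.88% lower), with 972, 952 and 878 CPM against 852, 807 and 848. That change of 0.13 ± 0.040 (edgeR adjusted p = 0.025) ended without mouse 1 (0.11, adjusted p = 0.24), without mouse 2 (0.089, adjusted p = 0.32) and with no replicate block (adjusted p = 0.089). It ended too with DESeq2 (adjusted p = 0.495), with no low-count filter (adjusted p = 0.065), under the stricter cell filter (adjusted p = 0.49) and with a limit of 2 Gata3 UMIs (adjusted p = 0.15). In the reporter sort 4 of 6 members passed where 43.8% of all genes did (22.3% higher, 21.5% lower). Tnfrsf4 rose from 391, 434.5 and 395.5 CPM to 571, 534.5 and 508 (0.40 ± 0.075, edgeR adjusted p = 2.3e-04) and Tnfrsf18 from 136, 139 and 163 to 229.8, 195 and 172 (0.43 ± 0.10, edgeR adjusted p = 0.0016). Cd27 fell from 195, 199.8 and 225 CPM to 117, 96.9 and 120.3 (−0.89 ± 0.085, edgeR adjusted p = 6.2e-08), and Fas from 29.1, 32.4 and 31.0 to 20.3, 11.4 and 19.2 (−0.87 ± 0.16, edgeR adjusted p = 2.4e-04). The sides did not overlap for any of these 4 genes. The 5 proliferation genes rose with a median of 2.25, and under the stricter cell filter Tnfrsf4 stood at −0.043 and Tnfrsf18 at 0.18, neither passing, and Fas at −1.33.

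Cxcr5, the homing receptor gene that defines Tfh cells, gave the reverse picture in the reporter sort, where 632 cells carried a UMI of it and 2895 did not. There 5 of 6 members passed, against 17.7% of all genes (7.95% higher, 9.79% lower). Tnfrsf4 was lower in Cxcr5+ cells, at 362, 316 and 329.6 CPM against 554.5, 547 and 518 (−0.73 ± 0.061, edgeR adjusted p = 3.2e-08), and so was Tnfrsf18, at 129, 124.3 and 123.5 against 219.5, 193 and 181.5 (−0.69 ± 0.076, edgeR adjusted p = 1.4e-06). Tnfrsf1b fell from 34.1, 29.1 and 37.2 CPM to 22.9, 16.4 and 20.5 (−0.80 ± 0.14, edgeR adjusted p = 3.8e-04). Cd27 rose, at 202, 189 and 192 CPM against 125, 107 and 135 (0.62 ± 0.078, edgeR adjusted p = 8.5e-06), and Fas rose, at 33.1, 27.7 and 33.6 against 20.6, 13.8 and 19.2 (0.77 ± 0.14, edgeR adjusted p = 5.2e-04). For all 5 genes the 3 Cxcr5+ values lay on one side of the 3 others. Under the stricter cell filter Tnfrsf1b (−0.75, edgeR adjusted p = 0.085) and Fas (0.91, edgeR adjusted p = 0.078) no longer passed. Th2 genes fell (5 of 5, median −2.37), 4 of 5 Tfh genes tested rose and Il21 fell (list median 1.29, Cxcr5 itself set aside), and proliferation genes fell (5 of 5, median −0.62). In the Tfh sort, where all cells were sorted on CXCR5 protein, the same split (864 against 2128 cells) moved only Tnfrsf9, 1 of 6 members where 1.66% of all genes passed (0.66% higher, 0.996% lower). Tnfrsf9 stood at 105, 61.4 and 59.4 CPM against 144, 109.8 and 101 (−0.68 ± 0.10, edgeR adjusted p = 1.0e-04), lower in each mouse although mouse 1 of the Cxcr5+ side overlapped the other side.

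**Figure D3:**
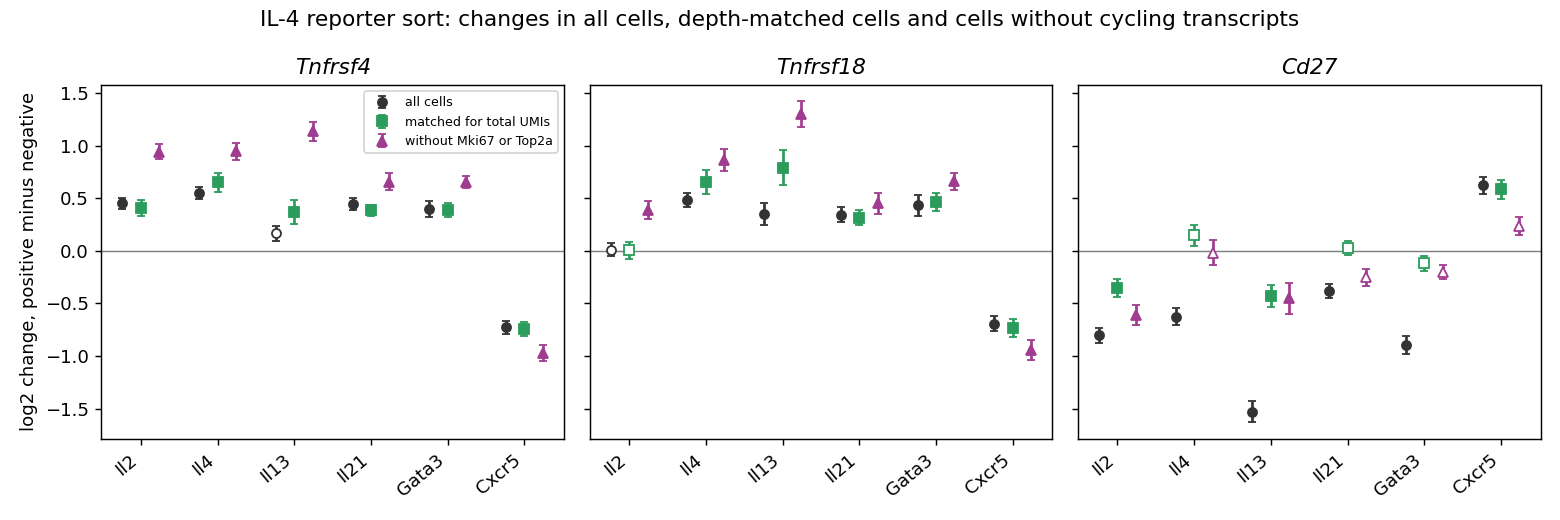
Log2 change of Tnfrsf4, Tnfrsf18 and Cd27 in the IL-4 reporter sort (vertical axis) for 6 marker transcripts (horizontal axis), in all cells, in cells matched for total UMIs within each mouse, and without cells holding a Mki67 or Top2a UMI. Bars are 1 SE and filled symbols mark adjusted p under 0.05; each Cd27 change moves toward 0 under both restrictions, the rise with Cxcr5 from 0.62 to 0.58 and 0.23, while every Tnfrsf4 and Tnfrsf18 change is farther from 0 without cycling cells.

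Depth and cell cycling moved with several of these contrasts, and the values of Cd27 and Fas moved with them. Tnfrsf9, Tnfrsf1b and, in the Tfh sort, Tnfrsf4 also differed with cycling. Cd27 in the reporter sort stood at 92.0, 75.8 and 108 CPM in cells with a Mki67 or Top2a UMI (transcripts of dividing cells) and at 193, 198 and 212 CPM in cells without, with no overlap. Tfh-sort means were 173.5 ± 21.3 and 253 ± 19.6 CPM. Fas was lower in such cells too (15.0 ± 4.87 against 28.8 ± 3.00 CPM in the reporter sort, 42.7 ± 5.27 against 66.4 ± 1.65 in the Tfh sort). Without them the Cd27 fall in the reporter sort became −0.019 for Il4 (edgeR adjusted p = 0.97), −0.45 for Il13 (adjusted p = 0.047), −0.25 for Il21 (adjusted p = 0.071), −0.20 for Gata3 (adjusted p = 0.056) and −0.61 for Il2. With cells matched for total UMIs within each mouse it became 0.15 for Il4, −0.43 for Il13 (adjusted p = 0.0097), 0.029 for Il21, −0.12 for Gata3 and −0.36 for Il2 (adjusted p = 0.017). The Il2 and Il13 falls of Cd27 thus passed under both restrictions, and the Il4, Il21 and Gata3 falls did not. The Cd27 rise with Cxcr5 was 0.23 without cycling cells and no longer passed (adjusted p = 0.083). Fas with Il13 became −0.76 without cycling cells (adjusted p = 0.091) and −0.52 in matched cells (adjusted p = 0.11), and with Gata3 −0.37 (adjusted p = 0.155) and −0.38 (adjusted p = 0.19). Tnfrsf1b with Il13 turned to 0.50 without cycling cells and 0.099 in matched cells, without passing. By contrast, the reporter-sort changes of Tnfrsf4 without cycling cells were 0.95 for Il4, 0.94 for Il2, 0.65 for Gata3 and 1.14 for Il13 (edgeR adjusted p under 0.05 in each). Those of Tnfrsf18 were 0.86 for Il4 and 1.30 for Il13. With all reporter-sort cells the Tnfrsf4 change with Il13 was 0.17 ± 0.071 and did not pass (edgeR adjusted p = 0.059). It turned sign under the stricter cell filter. In Tfh-sort cells without a Mki67 or Top2a UMI the Cd27 fall with Il13 was −0.68 and did not pass (adjusted p = 0.185). The Tnfrsf9 falls with Il4, Il21 and Cxcr5 in that sort passed in all 13 alternatives, among them the fit without cycling cells.

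Each change was also compared between the sorts, by the interaction of side and sort in edgeR over all genes. For Cxcr5, 5 of 6 members differed where 11.5% of all genes did: Tnfrsf4 by −0.69 ± 0.076 (reporter minus Tfh sort, edgeR adjusted p = 1.0e-06), Tnfrsf18 by −0.70 ± 0.11, Tnfrsf1b by −0.71 ± 0.19, Cd27 by 0.78 ± 0.11 and Fas by 0.91 ± 0.19. For Il4, 3 members differed where 3.83% of all genes did, Tnfrsf9 by 1.38 ± 0.19 (edgeR adjusted p = 3.9e-05), Tnfrsf4 by 0.44 ± 0.089 and Tnfrsf18 by 0.42 ± 0.11. The change of Tnfrsf9 with Il4 was thus −1.02 in the Tfh sort and 0.37 ± 0.14 in the reporter sort. The latter did not pass by itself (edgeR adjusted p = 0.058), and its sides overlapped. For Gata3 the Cd27 change differed by −0.71 ± 0.11 (edgeR adjusted p = 5.1e-04) and that of Tnfrsf4 by 0.33 ± 0.086 (adjusted p = 0.020), where 9.1% of all genes differed. Tnfrsf9 differed by 0.84 ± 0.19 for Il2 (adjusted p = 0.027, 0.508% of all genes) and by 0.86 ± 0.18 for Il21 (adjusted p = 0.046, 0.241% of all genes). No member differed for Il13, where 9.68% of all genes did and 0 members had an unadjusted p under 0.05, or for B cells (0.391% of all genes, 2 members under 0.05 unadjusted), and DESeq2 called 0 in both. Of these 12 differences 1, that of Tnfrsf4 with Cxcr5, passed in the same direction under all alternatives run.

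B cells provided a comparison with another lymphocyte. Tnfrsf4 stood at 123, 235 and 152 CPM in B cells of the Tfh sort against 899, 857 and 859 in helper T cells (−2.19 ± 0.13, edgeR adjusted p = 7.3e-09), Tnfrsf18 at 36.6, 53.4 and 34.4 against 223, 193 and 197 (−2.10 ± 0.15), Tnfrsf9 at 14.9, 17.8 and 19.9 against 132, 92.4 and 85.3 (−2.39 ± 0.22) and Cd27 at 71.8, 82.1 and 74.2 against 238, 220.2 and 220.6 (−1.39 ± 0.12). All 4 fell without overlap. Fas was higher in B cells in each mouse, at 63.6, 86.2 and 81.5 CPM against 59.0, 58.6 and 57.1 (0.58 ± 0.16, edgeR adjusted p = 0.0097), so that 5 of 6 members passed where 34.1% of all genes did (18.3% higher, 15.8% lower). The Fas call ended without mouse 2 (0.52, adjusted p = 0.0549) or mouse 3 (0.50, adjusted p = 0.0545) with DESeq2 (adjusted p = 0.10) and without cycling cells (0.19). All 6 members of the reporter sort passed against 14.9% of all genes (7.92% higher, 6.97% lower), with Tnfrsf4 at −1.59 ± 0.20, Tnfrsf9 at −1.55 ± 0.35, Tnfrsf18 at −1.46 ± 0.20, Tnfrsf1b at −0.82 ± 0.25 and Cd27 at −1.97 ± 0.27. Of these the Tnfrsf9 and Tnfrsf1b calls ended without mouse 1 (−1.23, adjusted p = 0.067, and −0.86, adjusted p = 0.24) or mouse 3 (−1.64, adjusted p = 0.105, and −0.72, adjusted p = 0.37). Fas stood at 44.3, 8.91 and 44.6 CPM in those B cells against 22.5, 15.8 and 22.2, a rise (0.89 ± 0.27, edgeR adjusted p = 0.043) in 2 of 3 mice that ended without mouse 1 (0.68, adjusted p = 0.37) or mouse 3 (0.66, adjusted p = 0.42) and stood at −0.51 without cycling cells. DESeq2 passed neither Fas (adjusted p = 0.28) nor Tnfrsf1b (adjusted p = 0.23), and Tnfrsf1b also failed in depth-matched cells (adjusted p = 0.061), with the stricter hashtag rule (adjusted p = 0.067) and without cycling cells (adjusted p = 0.087). With no replicate block Tnfrsf9 did not pass (adjusted p = 0.060).

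T-cell transcripts in the B cells moved with these levels. A Cd3d, Cd3e or Cd3g UMI was found in 222 of 562 and in 133 of 250 B cells. In those cells Tnfrsf4 stood at 248 ± 77.4 and 229.5 ± 75.4 CPM, and in the B cells without such a UMI at 53.3 ± 17.3 and 11.8 ± 2.61 CPM. Tnfrsf18 differed the same way, at 54.0 ± 18.9 with and 21.5 ± 12.96 CPM without in the Tfh sort and 92.4 ± 29.0 and 7.45 ± 6.97 CPM in the reporter sort. Of the B cells without such a UMI, 1 of 340 and 1 of 117 held a Tnfrsf9 UMI. Fas differed by less than its spread, at 83.5 ± 30.9 against 67.1 ± 18.6 CPM and 33.2 ± 17.3 against 32.6 ± 29.0 CPM, and so did Tnfrsf1b in the Tfh sort (51.92 ± 30.4 against 51.90 ± 8.39 CPM). Without the Cd3-positive B cells, an alternative chosen after the data were seen, the Tnfrsf4 change was −3.75 and −5.15 and that of Cd27 −1.51 and −3.31 in the 2 sorts. In the same fits Tnfrsf18 in the reporter sort stood at −4.09, and neither Fas in the Tfh sort (0.49, edgeR adjusted p = 0.082) nor Tnfrsf1b in the reporter sort (−0.91, edgeR adjusted p = 0.20) passed. The share of free RNA and of doublets in these values was not tested.

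**Figure D4:**
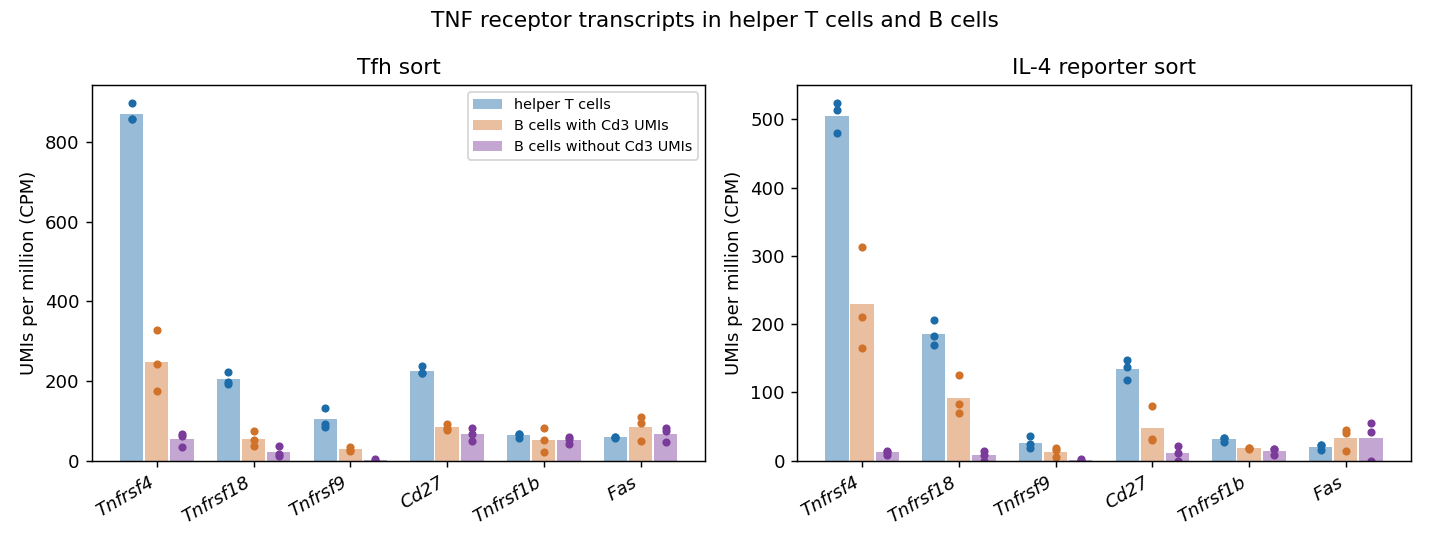
Levels of the 6 receptor transcripts (CPM, vertical axis) in helper T cells, in B cells with a Cd3d, Cd3e or Cd3g UMI and in B cells without one, for both sorts. Bars are means over 3 mice and points are mice; mean Tnfrsf4, Tnfrsf18 and Tnfrsf9 are lower in B cells without Cd3 UMIs than in those with one, while mean Fas is not below the helper T-cell level in either B-cell bar.

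Within helper T cells the members differed in how unevenly their UMIs were spread. The 5% of cells with the most Tnfrsf9 UMIs held 65.6% of all its UMIs in the Tfh sort and 75.5% in the reporter sort. For Cd27 these shares were 24.9 and 24.5%, for Tnfrsf4 28.7 and 34.4%, for Tnfrsf18 32.8 and 32.1%, for Tnfrsf1b 41.6 and 43.0% and for Fas 42.0 and 47.5%. A share of this kind also rises with sparse counts, and Tnfrsf1b and Fas had fewer UMIs than Tnfrsf9 in the Tfh sort (697 and 646 against 1170) but lower shares. The 71 Foxp3+ cells of the Tfh sort (2.37% of helper T cells) were deeper than helper T cells at large (median 4868 against 2782.5 UMIs). They held 469498 of 11062892 UMIs of all genes. Their share was 18.8% of the Tnfrsf9 UMIs, 10.5% for Tnfrsf18, 8.53% for Tnfrsf4, 7.46% for Tnfrsf1b, 4.70% for Cd27 and 3.56% for Fas. The 23 Foxp3+ cells of the reporter sort (0.652%) held 244698 of 34093523 UMIs. In the same order of members their shares were 6.17%, 2.27%, 1.84%, 2.25%, 1.15% and 0.868%. Most Tnfrsf9 UMIs thus lay in cells without a Foxp3 UMI.

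**Figure D5:**
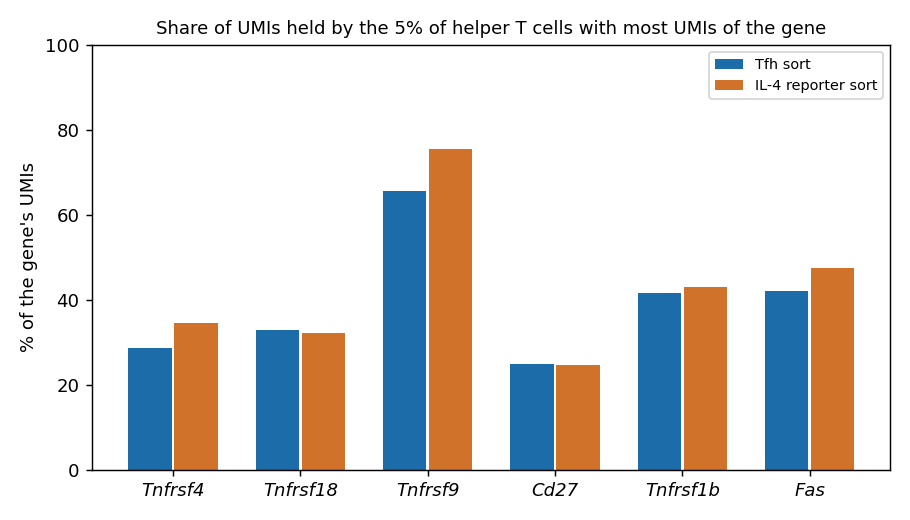
Share of each member's UMIs (percent, vertical axis) held by the 5% of helper T cells with the most UMIs of that gene, in both sorts. Tnfrsf9 is highest at 65.6 and 75.5%, and Cd27 lowest at 24.9 and 24.5%.

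Cells with 5 or more Tnfrsf9 UMIs numbered 69 in the Tfh sort (33, 22 and 14 by mouse) and 43 in the reporter sort (15, 7 and 21). Of the 69, 16 held a Foxp3 UMI and 37 an Il2 UMI, and of the 43, 4 and 23 did. Their summed Tnfrsf4 level was 2139 CPM against 748 in cells with 0 Tnfrsf9 UMIs (Tfh sort) and 1161 against 448 (reporter sort), and their Tnfrsf18 level 486 against 175 and 366 against 171.5. These cells were deeper as well, with median UMIs of 3835 against 2684 and 12740 against 6443, and as they were chosen by a member's own count these values are a description. After thinning each cell to 2000 UMIs (Tfh sort) or 4000 UMIs (reporter sort), cells with UMIs of both Tnfrsf4 and Tnfrsf18 were 1.16, 1.20 and 1.13 times the product of the single shares in the Tfh sort and 1.22, 1.15 and 1.22 times in the reporter sort. For Tnfrsf4 with Tnfrsf9 the ratios were 1.18, 1.25 and 1.17, and 1.31, 1.27 and 1.42. Tnfrsf4 with Cd27 gave 1.00, 0.96 and 1.04, and 0.94, 0.89 and 0.94. Joint detection was thus above the product in every mouse for the first 2 pairs, while for Tnfrsf4 with Cd27 it was below it in the 3 reporter-sort mice and on both sides in the Tfh sort. Of the thinned cells 349 of 2428 and 344 of 2917 held no member, and most held 1 (823 and 904) or 2 (782 and 1012).

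The genes most like each member were found by Pearson's r of log2(CPM + 10) over 11 class means centred within sort, among 5180 genes, as a description of classes that share libraries and depth. Tnfrsf4 was closest to Pdcd1lg2 (0.90), which encodes the PD-1 ligand PD-L2, Yrdc (0.88) and Abracl (0.87). Tnfrsf18 was closest to BC004004 (0.92), Capg (0.92) and the IL-2 receptor chain gene Il2rb (0.92), and Tnfrsf9 to 1810022K09Rik (0.92) and the folate carrier gene Slc19a1 (0.92). Tnfrsf1b was closest to Frg1 (0.90), Gem (0.88) and the AP-1 gene Junb (0.84). Cd27 was closest to Matk (0.97), the T-cell regulator gene Bcl11b (0.96) and Trim12a (0.95), and Fas to the ribosomal genes Rpl35a (0.97), Rps28 (0.95) and Rps23 (0.95).

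The ligands of the members were measured in the same cells, with 4 of 7 tested. With Il2 they rose, 3 of 4 in each sort: Tnfsf9, the ligand of 4-1BB, from 161, 172 and 157 CPM to 223, 252 and 206 in the Tfh sort (0.51) and by 0.61 in the reporter sort, Fasl, the ligand of Fas, by 0.85 and 0.42, and Tnf, the ligand of TNFR2, by 0.45 and 0.41. Foxp3+ cells had less Tnf (311, 344.5 and 429 against 706, 705 and 692 CPM, −1.13) and less Tnfsf9 (−0.99), while their Tnfrsf9 was higher. Gata3+ cells of the Tfh sort had less Tnfsf9 (−0.60), Fasl (−0.48) and Tnf (−0.47). Lta in the reporter sort, the gene of lymphotoxin-α, fell with Il13 (−1.87), Gata3 (−1.28) and Il4 (−1.02), and Tnf with Il13 (−0.61), Gata3 (−0.46) and Il4 (−0.42), while Lta rose (0.63) and Fasl fell (−0.53) with Cxcr5. Fasl fell with Il13 (−0.37) but rose without cycling cells (0.78). Smaller changes with Il4 were a Tnfsf9 rise in the reporter sort (0.36) and a Tnf fall in the Tfh sort (−0.15), which was lost in each fit that left out a mouse and stood at 0.14 in matched cells. With Il21, Tnfsf9 rose in both sorts (0.43 and 0.59) and Tnf in the Tfh sort (0.45). In matched cells the Il4 changes of Tnf and Lta in the reporter sort were 0.0064 and 0.11.

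Other receptors of the family were mostly too sparse, 2 to 4 of 22 being tested in the T-cell contrasts of the Tfh sort and 10 to 12 in those of the reporter sort. All that passed in T cells did so in the reporter sort, 2 rising and 6 falling of 12 with Il13, where 58% of all genes passed, and 5 falling of 12 with Gata3, where 43.8% did, so these counts are near the background. Tnfrsf26 fell with Il13 (−2.12), Il4 (−1.24), Gata3 (−1.19) and Il2 (−0.95), and Tnfrsf1a, the gene of the death-domain receptor TNFR1, with Il13 (−2.04), Il4 (−1.54) and Gata3 (−1.10). Tnfrsf23 fell with Il13 (−1.85) and Gata3 (−1.07). Tnfrsf14 (HVEM) had 3 UMIs on the Il13 side against 45, too few for a fold, and fell by 1.57 with Gata3. Tnfrsf8, which encodes CD30, rose with Il4 (1.02) and Tnfrsf13b (TACI) with Cxcr5 (0.40). In B cells the receptors for B-cell survival and help rose: Tnfrsf13c (BAFF receptor) stood at 370, 367 and 509 CPM against 4.57, 4.37 and 4.69 in helper T cells of the Tfh sort (6.64) and Cd40 at 59.6, 35.6 and 63.4 against 1.44, 4.37 and 1.17 (4.52). Tnfrsf17 (BCMA) had 17 UMIs in those B cells and 1 in the T cells.

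Among genes of receptor signalling, Cflar, an inhibitor of death signalling, rose with Il2 (0.51 in the Tfh sort, 0.37 in the reporter sort) and Il21 (0.44 and 0.42). Traf1, an adaptor of this family, rose with Il2 (0.27 and 0.32) and, in the reporter sort, with Il4 (0.39), and fell with Cxcr5 (−0.31). Siva1, a pro-apoptotic gene named as a partner of CD27, rose with Foxp3 (1.00) and Gata3 (0.63) in the Tfh sort and with Il13 (1.33), Gata3 (0.95), Il2 (0.38) and Il4 (0.36) in the reporter sort, and fell with Cxcr5 there (−0.52). Birc2 fell with Il13 (−0.76), Gata3 (−0.55), Il2 (−0.43) and Il4 (−0.42) in the reporter sort. Of 13 signalling genes tested there, 4 rose and 5 fell with Il13, where 58% of all genes passed. With Gata3 3 rose and 4 fell, where 43.8% of all genes passed. Of the 9 NF-kB response genes, Nfkbia, which encodes IκBα, fell in Foxp3+ cells from 2960.0, 3045 and 2977 CPM to 2202, 2361 and 2127 (−0.54) together with Tnfaip3 (−0.75). For the signalling and NF-kB response genes no values were drawn from the alternatives. The part of depth and cycling in their changes was not tested.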

How the data were processed

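Droplet 3′ RNA libraries with hashtag antibodies were measured for 1 lane per sort. The authors deposited raw UMI counts per gene and barcode (28692 features) and raw hashtag counts. Cell Ranger 2.2.0 and builds mm10 and GRCm38 are named per the submitters' processing notes, while the reporter matrix carries version 3.0.2 per the file headers. The counter of the hashtags and the gene annotation are not given in the sources used here.

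Of 3956 and 7646 barcodes, 3916 and 4585 reached 500 genes with mitochondrial UMIs no higher than 10%, and 3780 and 3989 were given to a mouse (top hashtag 10 or more counts and 3 times the second). In the reporter sort 2772 barcodes were above the mitochondrial limit. No doublet caller was run. UMIs were summed per mouse and side, keeping sums of 10 or more cells, and tested with edgeR 4.0.16 (R 4.3.3, TMM, filterByExpr with a minimum count of 10, mouse as block, Benjamini-Hochberg threshold 0.05). The same mice give both sides, which is where the pairing comes from, and differences between sorts are the interaction of side and sort. CPM use plain totals, while log2 changes use TMM. DESeq2 1.42.0 and the other settings are alternatives. Levels and sequences were handled in Python 3.11.15 with pandas 2.3.3, numpy 2.4.6, scipy 1.17.1 and matplotlib 3.10.9. The fits were tested on simulated data.

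Named genes are the 6 members, up to 4 other TNF receptors and up to 4 genes of each ligand or signalling list that passed, largest change first, and the 3 genes most like each member, of which 1 is not reported here. The members and lists were chosen with earlier results of these data known. Intervals cover counting error only.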

Additional observations from a re-analysis of the deposited data

Results flagged for a closer look

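The change of a member differed between the 2 sorts, by the interaction test in edgeR, in 12 cases. Strain, chemistry, sequencing run and sorting gate cannot be told apart in these differences, which are given as reporter minus Tfh sort on the log2 scale. With Cxcr5 the differences were −0.69 for Tnfrsf4, −0.705 for Tnfrsf18, −0.7139 for Tnfrsf1b, 0.7818 for Cd27 and 0.9144 for Fas. With Il4 they were 1.384 for Tnfrsf9, 0.4422 for Tnfrsf4 and 0.4217 for Tnfrsf18. With Gata3 they were 0.326 for Tnfrsf4 and −0.7075 for Cd27. Tnfrsf9 differed by 0.8445 with Il2 and by 0.8578 with Il21. Under the alternatives run, only the Tnfrsf4 difference with Cxcr5 passed every time. In cells matched for total UMIs no member differed with Il2, Il21 or Gata3, and with no replicate block none differed with Il2, Il4 or Il21.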

How the results depend on the processing

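Of 1164 recomputed changes of the members within a sort, 970 kept direction and side of the threshold, 76 lost the call, 35 gained one and 83 turned sign, 74 of these with neither value passing. Under the stricter cell filter 15 changes turned sign, 12 of these with neither value passing. The rest were Tnfrsf18 with Il13 and Tnfrsf4 with Gata3 in the reporter sort, called before the filter, and a change not called before that passed with the opposite sign under it. Of 48 calls, 21 passed in the same direction under every alternative run. The cause of each change was not tested. Each mouse gave both sides of its contrasts, so it was the block, and the fit with no replicate block is the alternative. The alternatives on the differences between sorts, on B cells without Cd3 UMIs and on cells without Il4, Il13 and Foxp3 UMIs were chosen after seeing the data. No value came from the stricter cell filter for B cells of the reporter sort, from the other UMI limit for Foxp3 in the Tfh sort, or from any setting for Foxp3 in the reporter sort, which had too few cells.

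The number of members that passed moved by over 1.5 times in the cases given here. In 61 others of the 304 recomputed counts it moved by no more than that, 37 lower and 24 higher. With DESeq2, in the Tfh sort 1 for Il4 (from 2), 0 for Il13 (from 2) and 0 for Gata3 (from 1) and for the differences between sorts 0 for Il2 (from 1), 0 for Il21 (from 1) and 1 for Gata3 (from 2) passed. With RLE size factors, for the differences between sorts 0 for Il21 (from 1) and 1 for Gata3 (from 2) passed. With no low-count filter, in the Tfh sort 1 for Il13 (from 2) and for the differences between sorts 1 for B cells (from 0) passed. With no replicate block, in the Tfh sort 0 for Gata3 (from 1), in the reporter sort 1 for Il21 (from 4) and for the differences between sorts 0 for Il2 (from 1), 0 for Il4 (from 3) and 0 for Il21 (from 1) passed. In cells matched for total UMIs, in the Tfh sort 1 for Il4 (from 2), in the reporter sort 2 for Gata3 (from 4) and for the differences between sorts 0 for Il2 (from 1), 0 for Il21 (from 1) and 0 for Gata3 (from 2) passed. With a hashtag rule of 20 counts and 5 times the second, in the Tfh sort 2 for Gata3 (from 1) and for the differences between sorts 0 for Il2 (from 1), 0 for Il21 (from 1) and 1 for Gata3 (from 2) passed. In cells with 1000 genes and at most 5% mitochondrial UMIs, in the Tfh sort 1 for Il4 (from 2), 1 for Il13 (from 2) and 0 for Gata3 (from 1), in the reporter sort 1 for Il21 (from 4), 2 for Gata3 (from 4) and 3 for Cxcr5 (from 5) and for the differences between sorts 0 for Il2 (from 1), 2 for Il13 (from 0), 1 for Gata3 (from 2) and 2 for Cxcr5 (from 5) passed. Without cycling cells, in the reporter sort 2 for Il4 (from 4) and 2 for Gata3 (from 4) and for the differences between sorts 0 for Il21 (from 1) and 1 for B cells (from 0) passed. With the other UMI limit, in the Tfh sort 1 for Il13 (from 2) and 2 for Gata3 (from 1) and for the differences between sorts 0 for Il2 (from 1), 0 for Il21 (from 1) and 1 for Gata3 (from 2) passed. Without Foxp3+ cells, in the Tfh sort 2 for Gata3 (from 1) and for the differences between sorts 0 for Il2 (from 1) and 0 for Il21 (from 1) passed.

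With DESeq2, the sign turned in the Tfh sort for Tnfrsf9 with Il2 (0.022) and in the reporter sort for Tnfrsf9 with Gata3 (−0.0098). With no low-count filter, the sign turned in the Tfh sort for Cd27 with Foxp3 (−0.030), Tnfrsf18 with Il21 (0.0069) and Fas with Il21 (0.0079). With no replicate block, the sign turned in the reporter sort for Tnfrsf9 with Gata3 (−0.0047) and Tnfrsf1b with Gata3 (−0.0043). In cells matched for total UMIs, the sign turned in the Tfh sort for Tnfrsf18 with Il2 (−0.076), Tnfrsf18 with Il4 (−0.044), Fas with Il4 (0.026), Tnf with Il4 (0.14), Cd27 with Il21 (0.019), Fas with Il21 (0.055), Cd27 with Gata3 (0.14), Tnfrsf18 with Cxcr5 (−0.010), Tnfrsf1b with Cxcr5 (0.082) and Cd27 with Cxcr5 (0.0074) and in the reporter sort for Cd27 with Il4 (0.15), Lta with Il4 (0.11), Tnf with Il4 (0.0064), Tnfrsf9 with Il13 (0.032), Tnfrsf1b with Il13 (0.10), Fasl with Il13 (0.41), Cd27 with Il21 (0.029), Fas with Il21 (0.061) and Tnfrsf9 with Gata3 (−0.078). With a hashtag rule of 20 counts and 5 times the second, the sign turned in the Tfh sort for Cd27 with Foxp3 (−0.12), Fas with Il2 (0.0073), Fas with Il21 (0.0096) and Tnfrsf18 with Cxcr5 (−0.0071) and in the reporter sort for Tnfrsf9 with Gata3 (−0.018). In cells with 1000 genes and at most 5% mitochondrial UMIs, the sign turned in the Tfh sort for Cd27 with Foxp3 (−0.034), Tnfrsf18 with Il2 (−0.0052), Tnfrsf4 with Il4 (−0.031), Tnfrsf18 with Il4 (−0.046), Fas with Il21 (0.074) and Tnfrsf18 with Cxcr5 (−0.060), in the reporter sort for Tnfrsf18 with Il2 (−0.22), Tnfrsf1b with Il2 (−0.063), Tnfrsf1b with Il4 (−0.24), Tnfrsf4 with Il13 (−0.24), Tnfrsf18 with Il13 (−0.069), Tnfrsf9 with Il21 (0.061), Fas with Il21 (0.14), Tnfrsf4 with Gata3 (−0.043) and Tnfrsf1b with Gata3 (−0.36) and for the differences between sorts for Tnfrsf4 with Gata3 (−0.079). Without cycling cells, the sign turned in the Tfh sort for Fas with Foxp3 (0.15), Tnfrsf9 with Il2 (0.36), Fas with Il2 (0.28), Fas with Il4 (0.043), Fas with Il13 (0.18), Fas with Il21 (0.052), Cd27 with Gata3 (0.13), Tnfrsf4 with Cxcr5 (0.034) and Tnfrsf1b with Cxcr5 (0.050) and in the reporter sort for Tnfrsf9 with Il13 (0.51), Tnfrsf1b with Il13 (0.50), Fasl with Il13 (0.78) and Fas with B cells (−0.51). With the other UMI limit, the sign turned in the Tfh sort for Fas with Il21 (0.061) and in the reporter sort for Tnfrsf1b with Il4 (−0.085). Without Foxp3+ cells, the sign turned in the Tfh sort for Tnfrsf9 with Il2 (0.39), Tnfrsf18 with Il21 (0.11) and Tnfrsf4 with Cxcr5 (0.0062) and in the reporter sort for Tnfrsf9 with Gata3 (−0.087) and Tnfrsf1b with Gata3 (−0.034). In cells without Il4, Il13 and Foxp3 UMIs, the sign turned in the Tfh sort for Tnfrsf9 with Il2 (0.18), Tnfrsf18 with Il2 (−0.0098) and Fas with Il2 (0.12).

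Leaving out 1 mouse at a time, where any count moved by over 1.5 times, the members that passed numbered in the Tfh sort 1 to 2 for Il4, 1 to 3 for Il13, 1 to 2 for Il21 and 0 to 2 for Gata3, in the reporter sort 2 to 4 for Il13, 2 to 5 for Il21 and 3 to 6 for B cells and for the differences between sorts 0 to 1 for Il2, 1 to 4 for Il4, 0 to 1 for Il21 and 1 to 2 for Gata3. The changes that turned sign ran in the Tfh sort −0.11 to 0.25 for Cd27 with Foxp3, −0.14 to 0.26 for Tnfrsf9 with Il2, −0.13 to 0.049 for Fas with Il2, −0.33 to 0.075 for Fas with Il4, −0.0029 to 0.16 for Tnfrsf18 with Il4, −0.28 to 0.48 for Tnfrsf1b with Il13, −0.072 to 0.037 for Fas with Il21, −0.034 to 0.0043 for Tnfrsf18 with Il21, −0.079 to 0.12 for Tnfrsf1b with Il21, −0.033 to 0.081 for Tnfrsf18 with Cxcr5 and −0.39 to 0.10 for Tnfrsf1b with B cells and in the reporter sort −0.050 to 0.21 for Tnfrsf1b with Il2, −0.042 to 0.056 for Tnfrsf18 with Il2, −0.073 to 0.15 for Tnfrsf1b with Il4, −0.16 to 0.28 for Tnfrsf9 with Gata3 and −0.17 to 0.16 for Tnfrsf1b with Gata3.

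The number of all genes passing, with its lowest and highest value over the alternatives, was in the Tfh sort 373 (80 to 549) for Foxp3, 882 (188 to 988) for Il2, 496 (90 to 561) for Il4, 295 (106 to 325) for Il13, 154 (28 to 349) for Il21, 1161 (45 to 1239) for Gata3, 128 (17 to 198) for Cxcr5 and 2734 (1549 to 3148) for B cells. It was in the reporter sort 1917 (264 to 2139) for Il2, 2759 (435 to 3145) for Il4, 5765 (1450 to 6087) for Il13, 599 (77 to 957) for Il21, 4402 (509 to 5029) for Gata3, 1799 (274 to 2038) for Cxcr5 and 1521 (868 to 2241) for B cells. It was for the differences between sorts 46 (0 to 102) for Il2, 340 (63 to 419) for Il4, 964 (49 to 1121) for Il13, 23 (0 to 97) for Il21, 858 (25 to 1247) for Gata3, 1050 (86 to 1128) for Cxcr5 and 36 (16 to 161) for B cells.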
